A study of Glycine max with 14 samples.

Results

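The comparison described here sets the black-seeded line RM30-R* against the brown-seeded line RM38-r at the green stage of 300–400 mg seed fresh weight, across the gene models of the soybean genome outside the anthocyanin pathway. Of the 14 RNA-Seq libraries of the series, 4 belong to it: R123 and R154 from RM30-R* and R125 and R156 from RM38-r, taken as the pairs R123 with R125 and R154 with R156. The table lists 69425 gene models at 61337 loci. 28 models at loci whose names start with Glyma13g118 or Glyma13g119 were set aside, the 4 libraries were rescaled to the same 75th percentile, and 38442 models at 31051 loci reached at least 0.5 RPKM (reads normalised for the length of the model and the mapped total of the library) in 2 or more of the 4 libraries. These are the models tested, of which 38427 lie outside the pathway.

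The series followed seed coats dissected from greenhouse-grown plants of both lines through 5 stages, staged by the fresh weight of the whole seed. RM38-r is a brown isoline of the cultivar Clark with the genotype i,r,T, and its r allele carries a single-base deletion that truncates a MYB transcription factor. RM30-R* has the genotype i,R*,T and is a stable black revertant of the variegated Clark isoline, which was bred by backcrossing the unstable rm allele of PI91073 into the brown Clark line; its R* allele still holds the CACTA-type transposable element TgmR* in intron 2. Both lines share the i and T alleles and the Clark background, and RM30-R* is a single revertant line in which donor segments from PI91073 outside the R locus were not assessed here. The study describes its second 400–500 mg determination as a biological replicate with its own RNA extraction and sequencing. Whether the 300–400 mg libraries of a line came from separate plants is not given in the sources used here. With the pair as a block, p-values measure only how far the line ratios of the 2 pairs disagree, which may be technical. A difference between replicates that both lines share is taken up by the block.

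The seed coat is maternal tissue that surrounds the embryo. It carries nutrients to the growing seed, accumulates pigment late in development in black and brown lines, and dies as the seed dries. The R gene product is a MYB factor that acts on the late genes of anthocyanin synthesis, and in black seed coats anthocyanins accumulate beside proanthocyanidins. In bulk tissue of this kind, fewer cells of a type and less RNA per cell cannot be told apart.

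The libraries held 49509780 mapped alignments in R123 and 80979434 in R154, against 52510482 in R125 and 64038791 in R156, as recovered from the steps of the low RPKM values. R125 stood apart: the 28 models set aside made up 36.2% of its summed RPKM, against 1.91% to 6.09% in the other 3 libraries, and its values were multiplied by 1.40 in the rescaling, against 0.878 to 0.905. Of the 15 pathway models tested, 10 were called and all 10 were higher in RM30-R*. The model of the R gene itself in this gene set, Glyma09g36990.1, measured 0.286 and 0.107 RPKM in RM30-R*, against 0.843 and 1.73 RPKM in RM38-r, and did not pass the test (log2 ratio −1.33 ± 0.34, SE; adjusted p = 0.188, limma). The 2 models that the study names as related to the transposase of the element, Glyma05g23600.1 and Glyma15g21480.1, were also not called, at 1.13 and 1.60 RPKM in RM30-R* against 0.804 and 1.39 RPKM in RM38-r for the model on chromosome 5.

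Outside the pathway, 243 models at 216 loci were higher in RM30-R* and 379 models at 329 loci were lower (limma on log2 of rescaled RPKM plus 0.5, with the pair as a block; Benjamini-Hochberg adjusted p under 0.05). With the pathway included, the calls came to 253 higher and 379 lower, or 1.64% of the models tested (0.658% higher and 0.986% lower). The median absolute log2 ratio was 1.94 among the models that were higher and 2.46 among those that were lower, as a description of models chosen by this test. The lower models were also the more abundant ones, with a median of 10.8 RPKM over the 4 libraries, against 6.04 RPKM for the higher models and 4.97 RPKM for all models tested.

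A few loci were looked at as markers of tissue. The deposited table gives them no names, and their identity comes from general knowledge of soybean loci, so they are a check of limited weight. For the seed coat itself the only marker was a peroxidase locus, Glyma09g02600, which did not pass the filter on low values, at 0.0255 and 0.0916 RPKM in RM30-R*, against 0.677 and 0.159 RPKM in RM38-r, so this locus did not bear out the tissue label.

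For embryo tissue, 12 models of storage protein loci (glycinins, beta-conglycinins and lectin) summed to 710.7 and 297.3 RPKM in RM30-R*, against 526.8 and 801.2 RPKM in RM38-r. None of the 12 was called, and the sums of the lines overlapped: R123 was above R125, and R154 below R156. The most abundant, Glyma10g39150.1, had 483.7 and 197.0 RPKM in RM30-R*, against 339.2 and 586.7 RPKM in RM38-r, and made up most of each sum. The members did not move together. The lectin and glycinin models were higher in RM30-R* in both pairs, and those of Glyma20g28460 and Glyma20g28640 were lower in both. Some beta-conglycinin models were nearly proportional to each other and may share reads.

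Lipoxygenases oxidise fatty acids and are abundant in soybean seeds. Only 3 such loci were listed, with 4 models. Of these models 3 were called lower in RM30-R*, against 0.986% of all models tested (Glyma13g42320.1, Glyma15g03030.1 and Glyma15g03030.2, the last 2 from 1 locus). The 4 models summed to 65.9 and 34.8 RPKM in RM30-R*, against 149.0 and 171.3 RPKM in RM38-r. Glyma15g03030.1 measured 13.2 and 10.3 RPKM in RM30-R*, against 58.5 and 67.6 RPKM in RM38-r (log2 ratio −2.38 ± 0.23, SE; adjusted p = 0.020, limma). A stay-green locus, Glyma01g42390.1, had 26.9 and 11.6 RPKM in RM30-R*, against 19.3 and 25.3 RPKM in RM38-r, and was not called. The part of embryo tissue in the line difference was not tested.

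The calls rest on the pairing. Without the replicate block no model was called in either direction, although 3456 models had an unadjusted p under 0.05, against 4286 with the block; the lowest adjusted p was then 0.0587 (limma). Leaving out a single library allows no block. Such fits drop the block together with the library, so they cannot show what a single library contributes. The balance of directions depended on the scaling: with the deposited values, not rescaled, 1017 models outside the pathway were higher and 654 lower, and the median log2 ratio of all models was then 0.33, against 0.03 after rescaling. The fit has 1 residual degree of freedom and 2 pairs, and the pairing was taken from the library numbers.

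Every called model differed by at least 2-fold in the same direction in each pair. This follows largely from the test: with 2 pairs as block, its spread is the disagreement between the pairs. Over all models tested, 643 were at least 2-fold higher in RM30-R* in both pairs (1.67% of those tested) and 746 were at least 2-fold lower (1.94%), together 3.61%, while 141 passed 2-fold in opposite directions. A total of 757 models passed 2-fold in both pairs without being called. Among the calls outside the pathway, 79 higher and 214 lower models passed 4-fold in both pairs, and 7 higher and 19 lower models passed 16-fold.

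**Figure D1:**
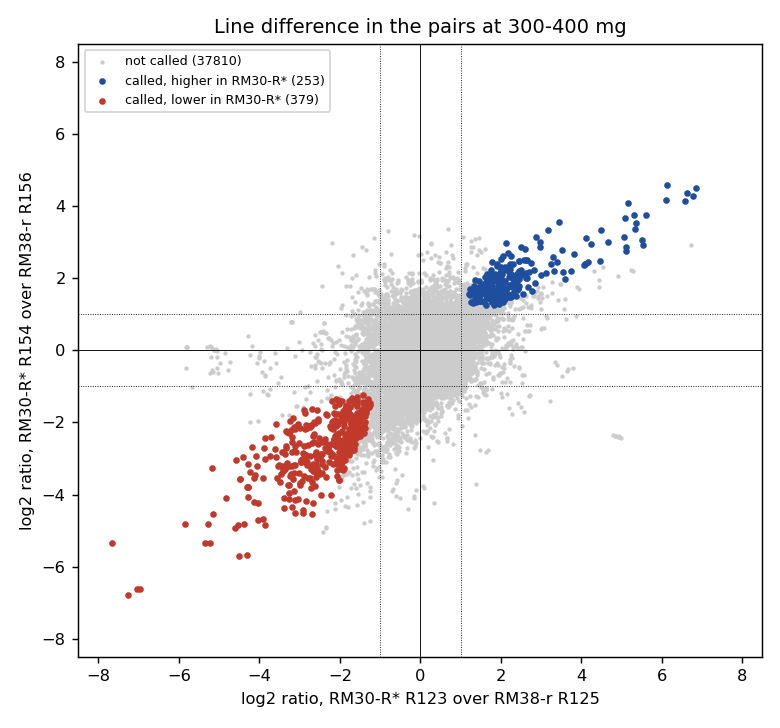
Each point is a gene model, with its log2 ratio of RM30-R* over RM38-r in the pair R123 and R125 on the x axis and in the pair R154 and R156 on the y axis; dotted lines mark 2-fold. The 253 called higher models (blue, 10 pathway models included) and the 379 called lower models (red) all lie beyond the 2-fold lines in both pairs, and a scatter of uncalled models lies along each axis. The test itself favours models on which the pairs agree.

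The loci that were highest in the black line relative to the brown one were under 5 RPKM in both RM38-r libraries, with Glyma07g03910.2 as the exception. Glyma08g24540.1 measured 44.4 and 20.4 RPKM in RM30-R*, against 0.142 and 0.377 RPKM in RM38-r. Those RPKM values in RM38-r come from 2 and 10 reads. The log2 ratio of Glyma08g24540.1 was 5.35 ± 0.39 (SE, adjusted p = 0.013).

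Glyma20g38650.1 had 66.8 and 54.7 RPKM in RM30-R*, against 0.0892 and 1.91 RPKM in RM38-r, and Glyma09g11910.1 had 95.0 and 55.0 RPKM in RM30-R*, against 0.460 and 2.21 RPKM in RM38-r. Glyma07g28520.1 measured 92.9 and 38.5 RPKM in RM30-R*, against 0.346 and 1.496 RPKM in RM38-r. For these 3 models the brown-line libraries differed between themselves, as a ratio, by more than the black-line libraries did, and R125 was the lower of them. Glyma07g03910.2, the least extreme of the group in fold, measured 111.5 and 66.6 RPKM in RM30-R*, against 9.71 and 5.15 RPKM in RM38-r, and its log2 ratio was 3.51 ± 0.20 (SE, adjusted p = 0.012).

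The other loci of this group were Glyma13g26160.1, Glyma13g29530.1, Glyma13g08880.1, Glyma13g08890.1, Glyma11g26060.1, Glyma09g06100.1 and Glyma09g06130.1. The 12 loci together had log2 ratios from 3.51 to 5.68 and adjusted p-values from 0.012 to 0.024 (limma). Glyma13g08880 and Glyma13g08890 are next to each other, as are Glyma09g06100 and Glyma09g06130. The last 2 had nearly proportional values over all 14 libraries, and since reads that align to several models were counted, their values may come in part from the same reads.

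The loci that were lowest in the black line were led by Glyma13g35320.1, which measured 0.155 and 1.88 RPKM in RM30-R*, against 99.8 and 260.3 RPKM in RM38-r. Its log2 ratio of −7.02 ± 0.21 (SE, adjusted p = 0.0032) was the largest among the called models in either direction. Glyma14g05760.1 measured 1.495 and 23.6 RPKM in RM30-R*, against 405.9 and 981.1 RPKM in RM38-r, with a log2 ratio of −6.51 ± 0.55 (SE, adjusted p = 0.016). In both loci the second library of each line was the higher one.

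Glyma03g34680.2 measured 0.239 and 0.866 RPKM in RM30-R*, against 29.9 and 55.2 RPKM in RM38-r. Glyma07g37270.1 had 1.83 and 10.0 RPKM in RM30-R*, against 133.1 and 297.3 RPKM in RM38-r. Glyma19g02450.1 was at 0 in R123, where 3 reads would have given 0.0384 RPKM, and at 1.24 RPKM in R154, against 13.8 and 29.1 RPKM in RM38-r. R123 was the lowest library in each of these 3 loci.

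The remaining loci of this group were Glyma07g10030.1, Glyma11g06280.1, Glyma19g43460.1, Glyma12g35450.1, Glyma17g03340.1, Glyma19g43470.1 and Glyma10g07410.1. The log2 ratios of all 12 lay between −7.02 and −4.17 and the adjusted p-values between 0.0032 and 0.016 (limma). In the fit with 8 libraries, 12 of 12 kept an adjusted p under 0.05, with a range of 0.0091 to 0.033 (limma). In 11 of the 12, R154 was higher than R123, and in all 12, R156 was higher than R125.

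**Figure D2:**
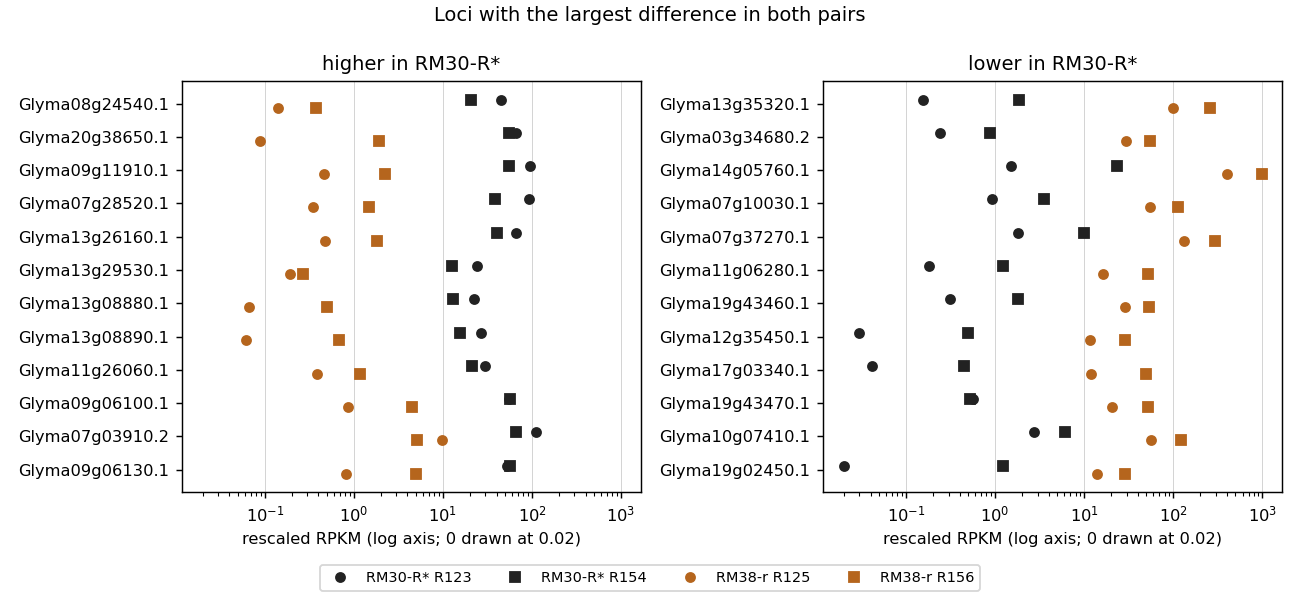
Rescaled RPKM on a log axis for the 12 loci with the largest difference in both pairs in each direction; black symbols are the RM30-R* libraries and brown symbols the RM38-r libraries, circles the first pair and squares the second. The loci were chosen for this separation: in the left panel every RM30-R* value is above every RM38-r value of the same locus, and in the right panel every RM30-R* value is below.

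The same replicate pattern held across the models called lower. R154 was higher than R123 in all but 42 of the 379 models, and R156 was higher than R125 in all but 14, whereas over all models tested R123 was the higher of the RM30-R* libraries in 50.2% and R125 the higher of the RM38-r libraries in 51.9%. Among the 243 models called higher, R123 exceeded R154 in 177 and R125 exceeded R156 in 128.

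Among called loci of high abundance, Glyma07g28610.1 had the highest mean RPKM. It measured 88.9 and 376.5 RPKM in RM30-R*, against 2001 and 4510 RPKM in RM38-r (log2 ratio −4.03 ± 0.55, SE; adjusted p = 0.042). Glyma02g42630.1 measured 111.1 and 206.2 RPKM in RM30-R*, against 1927 and 2283 RPKM in RM38-r (log2 ratio −3.79 ± 0.48, SE; adjusted p = 0.035). Next among the lower models by mean RPKM were Glyma02g04820.1, Glyma05g38130.1, Glyma14g05760.1 and Glyma11g10080.1.

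No model called higher reached such levels. Glyma16g17120.1, the most abundant, measured 218.1 and 200.7 RPKM in RM30-R*, against 44.5 and 47.2 RPKM in RM38-r (log2 ratio 2.18 ± 0.25, SE; adjusted p = 0.030). It was followed by Glyma13g09530.1, Glyma11g00280.1, Glyma05g29630.1, Glyma01g45440.1 and Glyma16g28150.1, whose levels in RM30-R* lay between 60.5 and 147.7 RPKM. Only 2 of the 243 higher models passed 100 RPKM in both RM30-R* libraries, whereas 22 of the 379 lower models did so in both RM38-r libraries.

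The 10 libraries of the other stages were not used to choose these models. At 100–200 mg the 12 most increased loci were abundant in both lines, with medians of 194.6 RPKM for RM30-R* against 138.6 RPKM for RM38-r, when all 14 libraries were rescaled together. At 200–300 mg their medians were 4.70 RPKM for RM30-R* against 3.65 RPKM for RM38-r, and in the desiccating stage 0 RPKM for RM30-R* against 0.0404 RPKM for RM38-r. The high values of RM30-R* at 300–400 mg (medians of 58.3 and 42.6 RPKM in R123 and R154) stood above the level of the same line at 200–300 mg.

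At 400–500 mg the replicates of these 12 loci were far apart. The RM30-R* library R111 had values from 0.307 to 4.58 RPKM, against 0.246 to 3.71 RPKM in its RM38-r partner R113. In the other pair, R155 had 25.6 to 105.0 RPKM, against 6.94 to 27.1 RPKM in R157. The difference between R111 and R155, both from RM30-R*, was larger than that between the lines in either pair. In the pair R155 and R157 the log2 ratio was positive in 12 of 12 loci, and in the pair R111 and R113 in 6 of 12.

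The 12 most decreased loci ran the other way through development. Their medians at 100–200 mg were 0.116 RPKM for RM30-R* against 0.129 RPKM for RM38-r, and in the desiccating stage 212.4 RPKM for RM30-R* against 322.7 RPKM for RM38-r. At 200–300 mg all 12 were already at least 2-fold lower in RM30-R*, with log2 ratios from −2.45 to −1.10 in the single pair of that stage; the whole set of models called lower was not lower there (median log2 ratio 0.22). At 400–500 mg 12 of 12 were lower in the pair R111 and R113, none of them by 2-fold, and 10 of 12 in the pair R155 and R157. Glyma13g35320.1 reached 5599 RPKM in RM30-R*, against 8594 RPKM in RM38-r, in the desiccating stage.

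**Figure D3:**
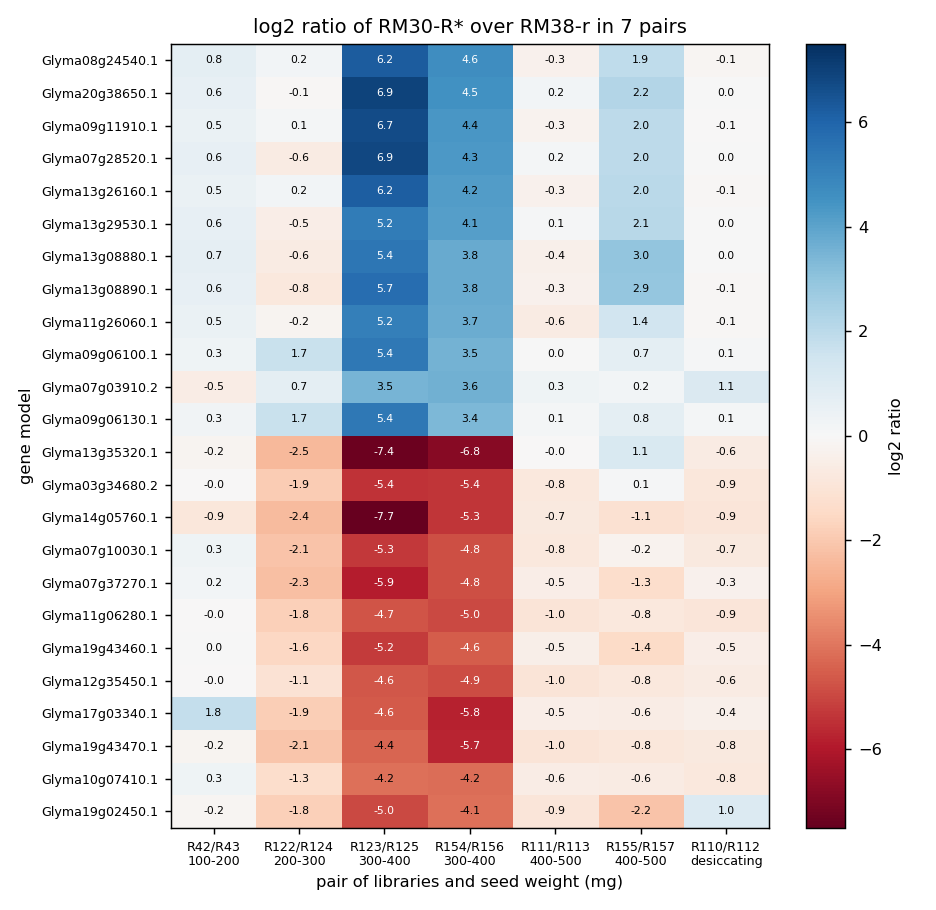
The log2 ratio of RM30-R* over RM38-r for the 24 loci with the largest differences (rows, increased loci above decreased ones) in the 7 pairs of libraries (columns, in order of seed weight, with the desiccating stage last). The 300–400 mg columns hold the extreme values by choice of the loci; the decreased loci are also lower at 200–300 mg, and the increased loci differ between the 400–500 mg pairs.

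Over whole sets, direction was kept at other stages by more of the higher models than of the lower ones. Of the 243 higher models, 148 (60.9%) were higher in RM30-R* in both 400–500 mg pairs, against 26.8% of all models tested, and 64 (26.3%) were higher in all 5 other pairs, against 3.97%. At 200–300 mg 149 of the 243 (61.3%) were at least 2-fold higher, against 1.65% of all models tested. Of the 379 lower models, 126 (33.2%) were lower in both 400–500 mg pairs, against 26.1% of all models tested. Higher in both were 67 of the 379, against 26.8% of all models tested. These pairs disagreed: 303 (79.9%) were lower in R111 and R113, against 47.8% of all models tested. In R155 and R157 only 135 (35.6%) were lower, against 51.4%, and the median log2 ratio was 0.54. In all 5 other pairs 49 (12.9%) were lower, against 4.90%. At 200–300 mg 173 of the 379 (45.6%) were lower, against 52.9% of all models tested, 54 of them by at least 2-fold, and the median log2 ratio was 0.22. At 100–200 mg only 90 of the 379 (23.7%) were lower in RM30-R*, against 52.7% of all models tested. The median log2 ratio was 0.83, that is, on the side of RM30-R*. In the desiccating pair 138 of the 243 higher models (56.8%) were higher, against 55.3% of all models tested. Of the 379 lower models 147 (38.8%) were lower there, against 44.5%.

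The difference in line effect between 300–400 mg and 400–500 mg was also tested gene by gene, as an interaction of line and stage in 8 libraries with the pair as a block. No model of 40124 passed (lowest adjusted p = 0.070, limma), while 3230 had an unadjusted p under 0.05. A p that misses the threshold does not show that the stages were alike. With the deposited values, not rescaled, 12 models passed.

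The called models were also models that change through development. Between 100–200 mg and the desiccating stage, 240 of the 243 higher models (98.8%) fell by at least 2-fold in both lines, against 11.4% of all models tested. Over the same interval, 239 of the 379 lower models (63.1%) increased by at least 2-fold in both lines, against 7.41% of all models, and 1 fell. The median level of the higher models was 40.8 RPKM for RM30-R* against 31.6 RPKM for RM38-r at 100–200 mg, and 0.380 RPKM for RM30-R* against 0.338 RPKM for RM38-r in the desiccating stage. The green stages were set apart from each other by seed weight, and the desiccating stage also by the yellowing of the cotyledons; the part of a difference in developmental progress between the lines at equal weight was not tested.

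**Figure D4:**
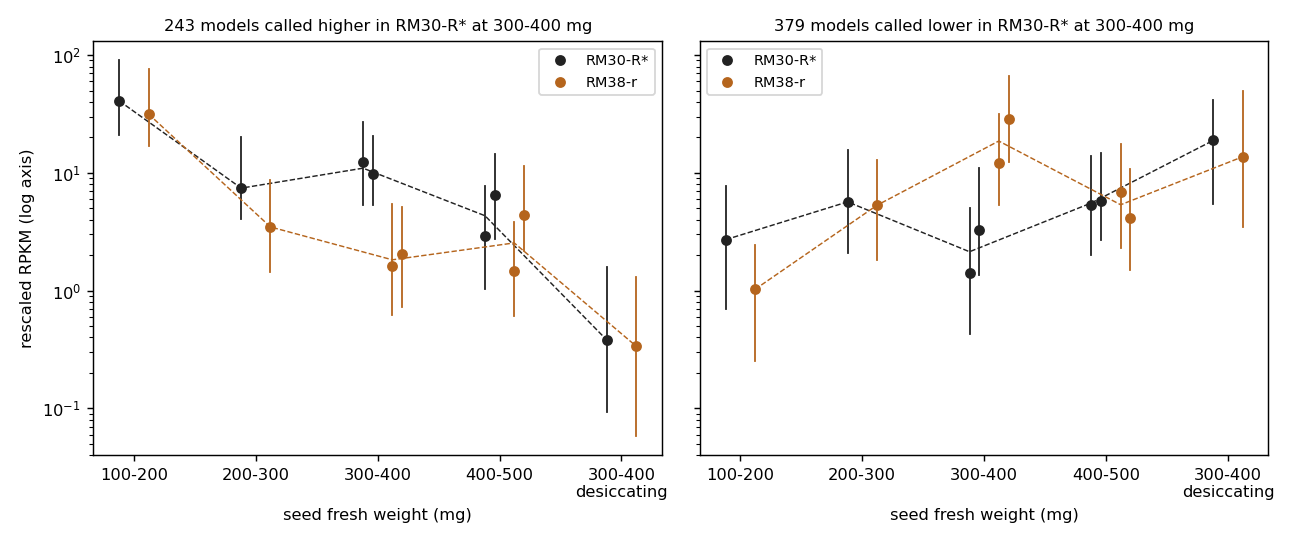
Median (points) and interquartile range (bars) of rescaled RPKM, on a log axis, over the 243 models called higher (left) and the 379 called lower (right) in RM30-R*, in each of the 14 libraries; black is RM30-R*, brown is RM38-r, and dashed lines join the stage means of the log medians. The lines are far apart at 300–400 mg, where the models were chosen; the left set falls and the right set increases toward the desiccating stage in both lines.

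Called loci were found on all 20 chromosomes, taking the chromosome from the locus name. The share of tested loci called ranged between 0.894% on chromosome 14 and 2.89% on chromosome 13, with 2.78% on chromosome 3. Chromosome 16 had 22 loci higher in RM30-R* and 8 lower, and chromosome 17 had 7 higher and 25 lower. Of the 28 models set aside for their level in R125, all lie on chromosome 13, and 23 further models with the same pattern (at loci starting Glyma13g120 to Glyma13g122, and Glyma05g09990) stayed in the fit; they made up 13.4% of the summed RPKM of R125 and 0.683% to 2.37% of the other libraries.

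**Figure D5:**
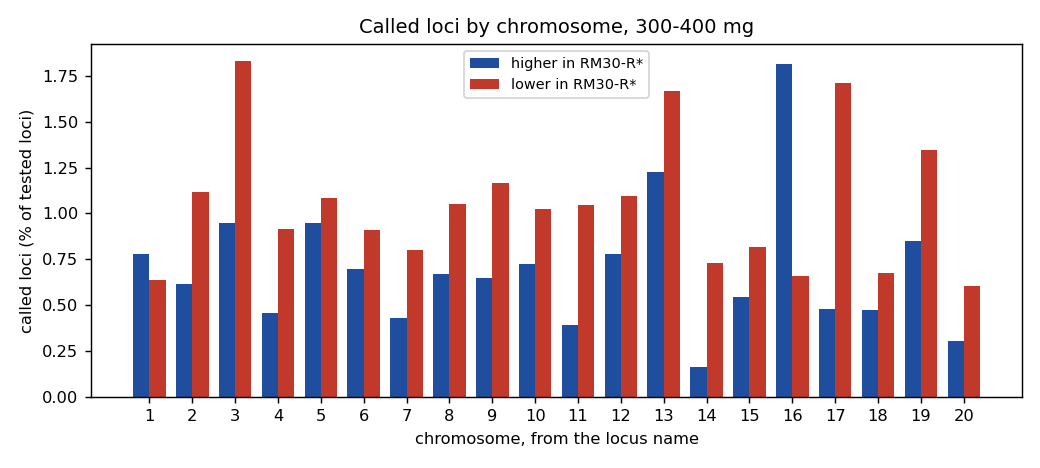
Percent of tested loci called higher (blue) or lower (red) in RM30-R* on each chromosome. Chromosome 16 has the highest share of higher loci (22 of 1212) and chromosome 3 the highest share of lower loci (27 of 1473).

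Some called loci were neighbours. Counting loci of the same direction with at most 3 places between them in the order of tested loci, 104 of the 545 called loci fell into 43 runs of 2 or more, and 10 runs held 3 or more. Of all 31039 loci tested outside the pathway, 0.696% were called higher and 1.06% lower. The number of runs that a random order of loci would give was not computed, and neighbouring copies may share reads. Of those 10 runs, 8 were of lower loci. The largest comprised 6 of 6 consecutive tested loci on chromosome 3, Glyma03g35920, Glyma03g35950, Glyma03g35960, Glyma03g35970, Glyma03g35980 and Glyma03g35990, all lower in RM30-R*.

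Within that run Glyma03g35990.1 had the highest level, with 2.00 and 9.58 RPKM in RM30-R*, against 22.8 and 108.5 RPKM in RM38-r (log2 ratio −3.33 ± 0.19, SE; adjusted p = 0.012). Glyma03g35920.1 measured 0.415 and 2.24 RPKM in RM30-R*, against 6.78 and 35.7 RPKM in RM38-r. The replicates of each line differed several-fold in both loci and in the same direction. Glyma03g35960.1 was nearly proportional to Glyma03g35990.1 over the 14 libraries and may share reads with it.

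A run on chromosome 4 (Glyma04g17650, Glyma04g17660, Glyma04g17680 and Glyma04g17710) was led by Glyma04g17650.1, at 5.26 and 23.5 RPKM in RM30-R*, against 50.4 and 166.5 RPKM in RM38-r. At other stages the log2 ratio of Glyma04g17650.1 was 3.16 in R42 over R43, 1.06 in R122 over R124 and 1.82 in R110 over R112. It was −0.25 in R111 over R113 and 1.56 in R155 over R157. A run of 3 loci on chromosome 10 was led by Glyma10g35010.1, which had 15.0 and 20.1 RPKM in RM30-R*, against 166.0 and 197.6 RPKM in RM38-r (log2 ratio −3.35 ± 0.22, SE; adjusted p = 0.013). In the chromosome 10 run the replicates were close to each other.

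On chromosome 17, Glyma17g03350.1 measured 3.72 and 6.34 RPKM in RM30-R*, against 62.6 and 174.2 RPKM in RM38-r, next to Glyma17g03340.1 among the most decreased loci. A second stretch of that chromosome, from Glyma17g32680 to Glyma17g32840, held 5 lower loci, several of them nearly proportional to each other. Of the runs of 3 or more, the 2 that were higher in RM30-R* began at Glyma10g36270 and Glyma16g31400. Glyma10g36290.1 measured 8.24 and 6.08 RPKM in RM30-R*, against 0.257 and 0.447 RPKM in RM38-r (log2 ratio 3.16 ± 0.27, SE; adjusted p = 0.017).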

How the data were processed

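Seed coat RNA was converted to libraries with a TruSeq RNA kit, sequenced as single reads, and aligned by the authors with Bowtie 1 to the Glyma1 soybean gene models; multiply aligned reads were kept, and strand was not used. The deposited table holds RPKM values that the authors computed per gene model, with no gene names; 1 incomplete line was left out. Values were rescaled to equal 75th percentiles after the chromosome 13 loci were set aside, filtered at 0.5 RPKM in 2 of 4 libraries, and tested as log2(RPKM + 0.5) with limma 3.58.1 in R 4.3.3 (variance trend, pair as block, Benjamini-Hochberg adjustment at 0.05); fold changes of low models are understated on that scale. The fits were tested on simulated data. Over the tested models, the deviations of paired libraries from their line means correlated at 0.204; with only 2 pairs, the pairing rests on the library numbers. Mapped alignments are the largest totals that turn the low RPKM values into whole reads (tolerance 0.05 reads, 1000 of 1000 low models); a fraction of a total would also do so. Named loci are the 12 per direction with the largest ratio in their weaker pair, the 6 per direction with the highest level, 1 model per locus, members of the longest runs, and the R gene model. The members and lists were chosen with earlier results of these data known. Lists keyed to gene descriptions were not used here because the RefSeq table at hand paired no name with these locus identifiers, and no sequence is shown for the same reason. Lists keyed to loci (storage proteins, lipoxygenases, stay-green, seed coat peroxidase) rest on general knowledge of soybean loci. Alternatives were other pseudocounts, filters, scalings, blocks and left-out libraries.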

Additional observations from a re-analysis of the deposited data

Results flagged for a closer look

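The 28 models on chromosome 13 that were kept out of the comparison took 1.91% and 6.07% of the summed RPKM in the RM30-R* libraries R123 and R154, against 36.2% and 6.09% in the RM38-r libraries R125 and R156. This signal lies outside the comparison and is high in 1 library of RM38-r only, so it is a difference between replicates of one line. Groups of 2 libraries allow no test for an outlying library.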

How the results depend on the processing

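The counts of calls outside the pathway depended on the block, the scaling, the filter and the set of libraries. Without the replicate block 0 models were higher and 0 lower in RM30-R*, against 243 and 379 with it. With 8 libraries and the replicate block, 79 were higher and 135 lower, and with the pair R123 and R125 taken out of those 8 (an alternative chosen after seeing the data, as was leaving out further chromosome 13 loci), 67 and 317. The deposited values without rescaling gave 1017 higher and 654 lower calls, 435 models 2-fold lower in both pairs against 746, and 12 interaction calls against 0. Medians of ratios gave 148 higher and 298 lower, and no filter gave 144 higher and 294 lower. Leaving out 1 library, without the block, gave 0 to 30 higher and 0 to 71 lower calls. The other alternatives kept each count within 1.5 times; the cause of the shifts was not tested. The 35 loci named for their fold or level had the other sign in 0 of 621 alternative fits. They were chosen as called and at least 2-fold in both pairs of these same libraries, so the kept sign is no support. Their adjusted p-values without the replicate block were 0.0587 to 0.219 (limma). With 2 libraries per line the smallest absolute log2 ratio called was 1.30.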

Other observations

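Where a called locus had more than 1 tested model, as 60 loci did, all its models had the same sign, and at 51 of them all were called. Models of a locus share reads and are not separate measurements.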
